A study of Mus musculus with 2 samples.

Results

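Conventional CD4 T cells were examined in mice whose livers carried 4T1 metastases, 5 days after hepatic arterial infusion (HAI) of vehicle or of CBL0137 at one of a pair of doses, called low and high in the labels. The cells were chosen by their own transcripts: a barcode entered when it held at least 2 UMIs (unique molecular identifiers, 1 per captured transcript) of Cd3d, Cd3e and Cd3g together and at least 1 of Cd4, with 0 of Cd8a, Cd8b1, Foxp3 and Ctla4 and at most 1 of Cd79a and Cd79b. The rule found 854 barcodes in the library labelled liver, and 49 of them were dropped because no hashtag dominated. The remaining 805 cells, of 9591 barcodes in that library and 14421 in both libraries, fell into 188 vehicle, 265 low dose and 352 high dose cells.

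All groups were female BALB/cAnNCrl mice aged 7 to 8 weeks that received 4T1 breast cancer cells through the spleen, which is then partly removed, so the controls carried the tumor as well. The vehicle was dextrose in water. CBL0137 is a small molecule that binds DNA, traps the histone chaperone FACT on chromatin and was studied here for its effect on myeloid-derived suppressor cells. Each group was 1 pool of 2 mice in 1 droplet library, so no group had a replicate, no test was possible, and the intervals below cover counting error only. Neither dose is stated in amount by the labels.

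The cells of the 3 groups were mixed in the library and told apart by hashtags, which are antibodies carrying an oligonucleotide. The sequences below are shown because they alone decide which treatment a cell belongs to. Each is written 5′ to 3′.
A0301, vehicle: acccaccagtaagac
A0305, low dose: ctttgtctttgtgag
A0310, high dose: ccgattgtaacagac
A cell was given the hashtag with the most UMIs when it had at least 10 and 3 times the next. The median of the leading hashtag was 1165 UMIs in vehicle, 1032 in low dose and 481 in high dose cells.

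Conventional CD4 T cells are helper cells. They recognize peptides on MHC class II through the T cell receptor and its CD3 chains, leave the thymus as naive cells that circulate through spleen and lymph nodes, and on activation divide and become effector, follicular helper or memory cells. Lef1 and Tcf7 encode transcription factors of the naive state, Il7r the receptor for the survival cytokine interleukin 7, and Ccr7 a receptor that guides cells into lymphoid tissue.

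The label was checked with genes that the rule did not use. Lef1 stood at 558 UMIs per 1000000 (CPM; 95% Poisson interval 537 to 580.5) in the CD4 T cells and at 11.9 CPM in 1391 B cells of the same library (at least 2 UMIs of Cd79a and Cd79b, none of Cd3). Tcf7 stood at 388 CPM against 1.30, Il7r at 910.1 against 36.6, and Trac, the constant region of the receptor alpha chain, at 569 against 0.651. At least 1 UMI of Lef1 was found in 86.1% of the CD4 T cells and 3.02% of the B cells, of Ccr7 in 66.7% and 21.9%, and of Cd44, which is raised on memory cells, in 14.9% and 10.4% (median 4873 and 3603 UMIs). These markers set the cells apart from B cells, and genes of the naive state were abundant. They did not set them apart from 747 CD8 T cells of the same library (Cd8a or Cd8b1 present, no Cd4). There Lef1 stood at 456 CPM, Tcf7 at 344, Il7r at 903 and Trac at 429.5, and Ccr7 was found in 70.5%. The distinction from CD8 T cells thus rests on genes that the rule used. Trdc, a delta chain transcript, stood at 18.1, 8.07 and 13.4 CPM in vehicle, low dose and high dose cells, and Foxp3 and Cd8a were at 0 by the rule.

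The tissue label was not borne out by the transcripts of the library. Clec4f, a marker of liver macrophages, had 0 UMIs among 79585807 in the library labelled liver, which allows at most 0.0377 CPM, and Alb was also at 0. In the library labelled spleen Clec4f had 4602 UMIs and Alb, which encodes albumin, 1157. The file of the library labelled liver is named for the spleen, so the tissue of these CD4 T cells is uncertain. The study's methods describe CD11b+ cells isolated with magnetic beads for these libraries, whereas the labels and other passages of the study describe leukocytes. T cells as a rule lack CD11b, and the part of that isolation in the shares below was not tested.

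Near the threshold, 11 cells had exactly 2 CD3 UMIs and their Lef1 level was 168 CPM, while 13 barcodes with 1 CD3 UMI were left out and stood at 427 CPM. Of the members, 497 had a single Cd4 UMI. A further 1273 barcodes with enough CD3 but no Cd4 UMI were left out. They carried 112529 CPM of S100a8, a neutrophil transcript, against 5296 CPM in members with a single Cd4 UMI.

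Depth was similar between groups. The median was 4872 UMIs and 1666 genes in vehicle cells, 4678 and 1634 in low dose cells, and 5054 and 1710 in high dose cells. The summed UMIs were 1103529, 1362488 and 2097338, and mitochondrial transcripts made up a median of 3.51%, 3.61% and 3.38%. The libraries shared 15 barcode sequences, none of them among the members.

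Conventional CD4 T cells made up a larger share of the barcodes after CBL0137. They were 188 of 3360 vehicle barcodes (5.60%; 95% Clopper-Pearson interval 4.84 to 6.43), 265 of 3408 low dose barcodes (7.78%; 6.90 to 8.73) and 352 of 2143 high dose barcodes (16.4%; 14.9 to 18.1). The high dose exceeded the vehicle by 10.8 percentage points, with limits of 8.45 to 13.2 from both exact intervals. The low dose exceeded it by 2.18 points (0.472 to 3.88). A share of barcodes also moves when other cells are lost, and here fewer other cells and more CD4 T cells cannot be told apart.

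CD8 T cells, chosen with Cd8a or Cd8b1 and without Cd4, were 5.80%, 7.92% and 13.2% of the barcodes. Their rule kept the limits on CD3, Foxp3, Cd79a and Cd79b but, unlike that of the CD4 T cells, set none on Ctla4. CD4 T cells were 49.1% of the CD4 and CD8 T cells together in the vehicle group (44.0 to 54.2), 49.5% at the low dose (45.2 to 53.9) and 55.5% at the high dose (51.6 to 59.4). These 3 intervals overlapped. Of all barcodes with at least 2 CD3 UMIs, CD4 T cells were 21.9%, 22.6% and 30.7%, a difference of 8.80 points between high dose and vehicle (3.23 to 14.3), and CD8 T cells 22.7% in the vehicle group and 24.6% at the high dose, a difference of 1.89 points (-3.53 to 7.25). That base of 859, 1172 and 1147 barcodes held 379, 515 and 379 of the barcodes without Cd4 described above, with their high S100a8, so it too moved with other cells. Foxp3+ regulatory T cells, which the rule leaves out, were 1.16%, 1.88% and 3.13% of the barcodes.

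**Figure D1:**
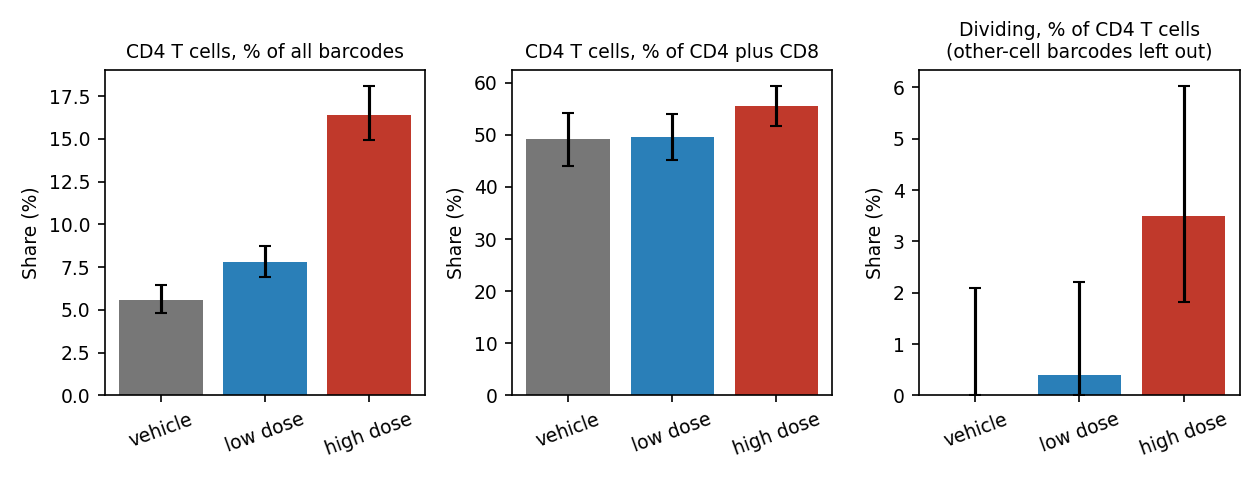
Shares of CD4 T cells by group, as bars with 95% Clopper-Pearson intervals: percent of all barcodes with a hashtag group (left), percent of CD4 plus CD8 T cells (middle), and percent of CD4 T cells that carried at least 3 UMIs of 8 division genes, with barcodes rich in transcripts of other cell types left out (right). The high dose bar stands at 16.4% on the left, against 5.60% for the vehicle, and at 3.50% on the right, where the vehicle had none.

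Some member barcodes carried RNA of other cells. Transcripts of 7 marker lists (neutrophil, B cell, macrophage, dendritic cell, erythroid, platelet and hepatocyte) made up over 1% of the UMIs in 13 vehicle, 14 low dose and 9 high dose barcodes. These few barcodes held 19.6% of the summed UMIs of the vehicle group, 10.6% of the low dose group and 7.41% of the high dose group. The neutrophil list summed to 20579, 21977 and 7750 CPM, with S100a9 as its most abundant gene and none of its 12 genes at 0. The erythroid list summed to 6708, 106 and 3458 CPM, led by Hbb-bs. The B cell list summed to 1788, 233 and 1323 CPM, led by Igkc, and the macrophage list to 1328, 190.1 and 452 CPM, led by Lyz2. Of the dendritic cell list Clec9a and Siglech were at 0, and all 3 hepatocyte genes were at 0. Without these barcodes the neutrophil list was 1422, 1349 and 1353 CPM, near equal in the groups, and the erythroid list was 77.8, 113 and 76.7 CPM. The barcodes were chosen by these same lists, which caps the levels that remain in every group. After thinning each cell to 1000 UMIs, S100a8 was seen in 38.7%, 39.4% and 35.7% of CD4 T cells and in 39.6%, 42.7% and 39.7% of B cells. The source of these UMIs was not tested. Lyz2 was not near equal without the barcodes over 1%, at 27.1, 14.8 and 121 CPM. A high dose barcode of 26594 UMIs, 0.9513% of them from the 7 lists, lay just under the cut, and its part in this level was not tested. Ratios below are for all members unless said otherwise, and for many genes the value with the 36 barcodes left out is given too.

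Across genes the comparison asked which transcripts of CD4 T cells differed between each dose and the vehicle. Of 3790 genes with at least 150 UMIs over the 3 groups, 143 were at least 1.5-fold higher at the high dose (3.77%) and 148 at least 1.5-fold lower (3.91%). At the low dose 95 were higher (2.51%) and 167 lower (4.41%). With the 36 barcodes left out 3403 genes had enough UMIs, and 138 of them were higher (4.06%) and 44 lower (1.29%) at the high dose, and 76 higher (2.23%) and 82 lower (2.41%) at the low dose. The higher calls of the high dose were shared between both sets for 89 genes (62.2% of the first list and 64.5% of the second), the lower calls for 23 genes (15.5% and 52.3%). The median log2 ratio of all genes was 0.048 at the high dose and 0.011 at the low dose. Both doses were compared with the same vehicle cells.

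**Figure D2:**
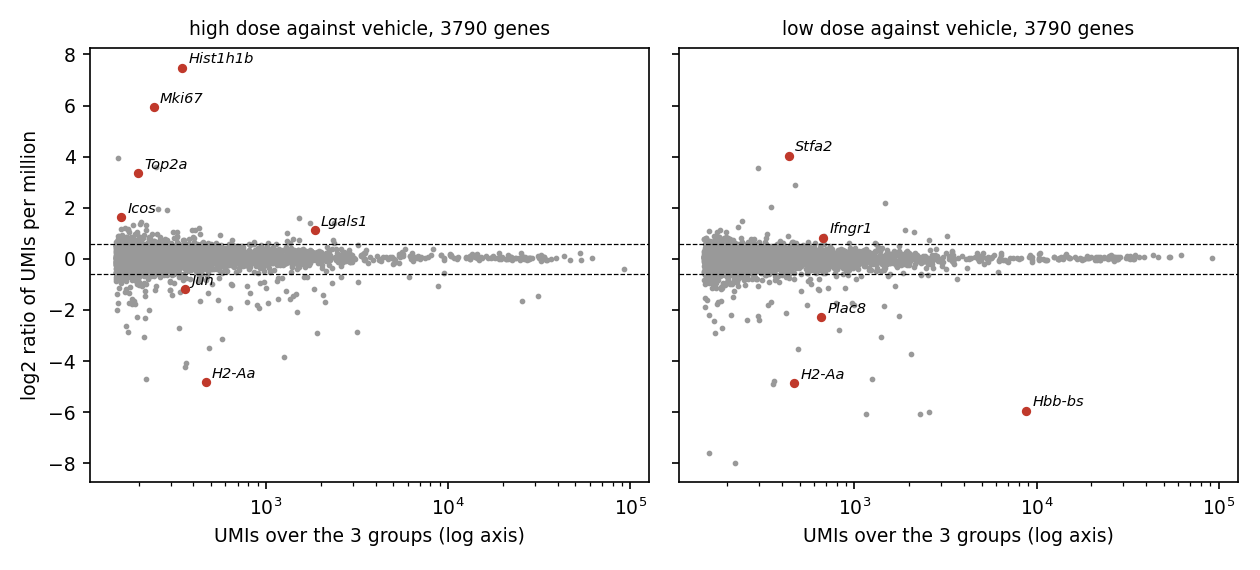
Log2 ratio of UMIs per 1000000 against the UMIs of a gene over the 3 groups (log axis) for 3790 genes in all 805 cells, with 1.5-fold marked by dashed lines and genes at 0 in either group not drawn. Hist1h1b (7.49) and Mki67 (5.94) lie at the top for the high dose, and H2-Aa (-4.83 and -4.85) and Hbb-bs (-5.94 at the low dose) near the bottom.

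Among the lowest ratios were genes that T cells do not use. H2-Aa, an MHC class II chain of antigen-presenting cells, stood at 381, 13.2 and 13.4 CPM in the vehicle, low and high dose groups and without the 36 barcodes at 23.7, 13.1 and 10.3 CPM. Hbb-bs, a globin, stood at 4106, 66.8 and 1970 CPM and without them at 46.2, 71.5 and 45.8. Igkc, an immunoglobulin light chain, stood at 252, 53.6 and 669 CPM, and 92.3% of its high dose UMIs lay in 1 barcode. Without the 36 barcodes it stood at 62.0, 54.2 and 52.5 CPM. Without the 36 barcodes Hbb-bs and Igkc were near equal between vehicle and high dose cells, while H2-Aa kept a log2 ratio of -1.20 (-2.16 to -0.25). These genes are on the lists by which the 36 barcodes were chosen, so the near equality was in part built in.

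The genes with the highest ratios at the high dose were those of cell division. Hist1h1b, a linker histone of S phase (chromosome 13, 21779883 to 21780625, minus strand, mm10), had 1, 5 and 342 UMIs in the vehicle, low and high dose groups. Its levels were 0.906, 3.67 and 163 CPM, and the log2 ratio of the high dose to the vehicle was 7.49 (5.00 to 12.80). With a single vehicle UMI the size of this ratio is poorly fixed. Mki67, the proliferation marker Ki-67 (chromosome 7, 135689784 to 135716361), had 2, 7 and 233 UMIs, or 1.81, 5.14 and 111 CPM. Top2a, which untangles DNA before cells divide (chromosome 11, 98992943 to 99024189), stood at 8.16, 10.3 and 83.4 CPM, a log2 ratio of 3.35 (2.40 to 4.51). Pclaf, a partner of the replication clamp, stood at 9.06, 5.14 and 111 CPM. In each of these genes the high dose stood far above both other groups, whose intervals overlapped.

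Genes with a broader use in cycling cells were also higher. Stmn1, which destabilizes microtubules, stood at 29.0, 17.6 and 109 CPM, a log2 ratio of 1.91 (1.37 to 2.49). Hmgb2, a chromatin protein abundant in dividing cells, stood at 296, 272 and 795 CPM, a log2 ratio of 1.42 (1.25 to 1.60) that became 1.88 (1.65 to 2.12) without the 36 barcodes. Ezh2, the enzyme of histone H3 lysine methylation in the Polycomb complex, stood at 23.6, 26.4 and 59.6 CPM. Of 19 genes on the cell cycle list 9 had enough UMIs, 6 were at least 1.5-fold higher at the high dose and none lower (3.77% and 3.91% of all genes), with a median log2 ratio of 1.21 against 0.048 over all genes. At the low dose 1 was higher and 1 lower (2.51% and 4.41% of all genes), with a median of 0.02. A gene that passed the UMI minimum only through the high dose had to differ, so these counts are a description.

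Promoter sequences of the division genes that moved together are shown from RefSeq (build GRCm38.p6, the sequence of mm10), each covering 250 bases before to 50 bases after a start site, 5′ to 3′ on the strand of the gene. Of 8 genes looked for (Hist1h1b, Mki67, Pclaf, Top2a, Stmn1, Hmgb2, Ezh2 and Smc2), 6 were in the table. Capitals mark CCAAT, the box bound by NF-Y, and TTTGAA, the core of the cell cycle homology element, on either strand (as ATTGG and TTCAAA). The 2 motifs do not overlap each other in their letters.
Top2a, chr11:99024140-99024439, minus strand: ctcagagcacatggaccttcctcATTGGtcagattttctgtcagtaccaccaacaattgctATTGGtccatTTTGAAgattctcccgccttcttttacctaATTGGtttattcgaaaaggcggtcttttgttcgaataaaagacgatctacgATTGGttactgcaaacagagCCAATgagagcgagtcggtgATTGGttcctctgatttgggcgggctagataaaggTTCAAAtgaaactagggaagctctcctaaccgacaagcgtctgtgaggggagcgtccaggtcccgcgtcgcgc
Mki67, chr7:135716330-135716629, minus strand: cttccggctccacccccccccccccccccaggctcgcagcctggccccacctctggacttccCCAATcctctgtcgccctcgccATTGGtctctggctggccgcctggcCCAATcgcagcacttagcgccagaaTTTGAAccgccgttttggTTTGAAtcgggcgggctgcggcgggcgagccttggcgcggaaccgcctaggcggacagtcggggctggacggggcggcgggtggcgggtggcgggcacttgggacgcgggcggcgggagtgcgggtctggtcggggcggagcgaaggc
Hmgb2, chr8:57511593-57511892, plus strand: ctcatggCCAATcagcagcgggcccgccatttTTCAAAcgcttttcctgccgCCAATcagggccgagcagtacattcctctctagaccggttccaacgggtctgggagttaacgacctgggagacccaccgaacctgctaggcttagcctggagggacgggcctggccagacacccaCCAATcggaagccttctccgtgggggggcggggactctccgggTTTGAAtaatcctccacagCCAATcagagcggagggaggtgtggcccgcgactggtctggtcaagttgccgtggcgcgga
Top2a held 6 CCAAT and 2 TTTGAA matches, Mki67 3 and 2, and Hmgb2 4 and 2. CCAAT was found in all 6 promoters and TTTGAA in 4, while 37.4% and 17.9% of all 32851 RefSeq promoter windows held them. A match is a description of the letters and not of a bound site.

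The UMIs of the division genes lay in few cells. A cell was called dividing when it carried at least 3 UMIs of Mki67, Top2a, Birc5, Cdk1, Ccnb1, Ccnb2, Tyms and Rrm2. There were 2 such cells of 188 in the vehicle group (1.06%; 0.129 to 3.79), 1 of 265 at the low dose (0.377%; 0.00955 to 2.08) and 17 of 352 at the high dose (4.83%; 2.84 to 7.62). Both vehicle barcodes carried RNA of other cells, as did 5 of the 17. Without them the counts were 0 of 175, which allows a share of up to 1.71%, then 1 of 251 (0.398%; 0.0101 to 2.20) and 12 of 343 (3.50%; 1.82 to 6.03). The vehicle limit of 1.71% is that of 3 counts. The Clopper-Pearson limit for the same 0 of 175 is 2.09%, which lies above the lower end of the high dose interval, so whether the intervals of vehicle and high dose touched depended on the limit used. Only 2 of the 12 sat just past the threshold with 3 UMIs, and the others held 12 to 141. Cells just under it, with 2 UMIs, numbered 5, 6 and 10 in the vehicle, low dose and high dose groups.

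The 12 dividing cells each carried 10 to 97 UMIs of the T cell receptor constant regions, which the rule did not use. They were large: their median was 17326 UMIs, against 4910 in the other high dose cells, and they held 12.1% of the UMIs of the group once the 36 barcodes were left out. Below, shares of a gene in dividing cells have that base, and values without dividing cells leave out the 36 barcodes as well. Scrublet called none of the 12 a doublet, and their leading hashtag exceeded the next by a median of 28.4 times. A pair of T cells of the same group in 1 droplet would share a hashtag, and its part in these counts was not tested. Thinned to 1000 UMIs, any of the 8 genes was seen in 5 of 186 cells in the vehicle group, 6 of 264 at the low dose and 21 of 350 at the high dose (2.69%, 2.27% and 6%), against 10.1%, 10.6% and 15.3% at full depth. B cells of the same groups stood at 6.04%, 4.29% and 5.68% thinned (median 5082 and 3939 UMIs before thinning in the high dose groups). By this measure the high dose CD4 T cells stood at the level of the B cells.

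**Figure D3:**
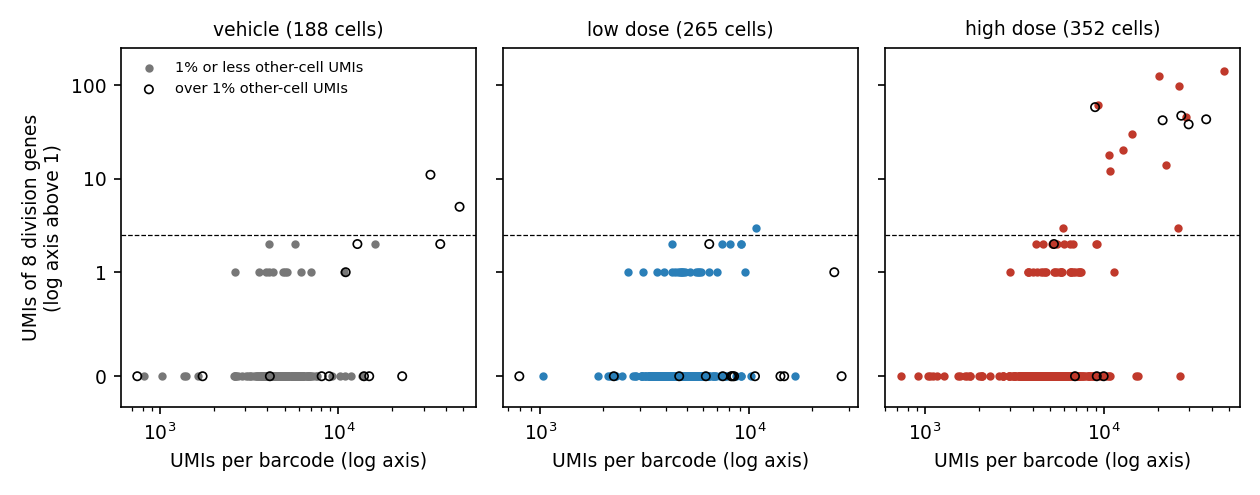
UMIs of 8 division genes in each CD4 T cell against its total UMIs (log axes, 0 shown at the bottom), by group, with open circles for barcodes with over 1% of UMIs from other-cell lists. The 17 high dose cells above the dashed line reach 141 UMIs, while the low dose has 1 cell above it and the vehicle 2 open circles.

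Of the 4 follicular helper genes with enough UMIs 3 stood at least 1.5-fold higher at the high dose. Icos, a costimulatory receptor of activated and follicular helper T cells (chromosome 1, 60977927 to 61000320), stood at 16.3 CPM (9.67 to 25.8) in vehicle, 25.7 in low dose and 51.0 (41.8 to 61.6) in high dose cells. The log2 ratio of the high dose was 1.65 (0.92 to 2.45) and, without the 36 barcodes, 1.75 (0.94 to 2.67). Thinned to 1000 UMIs, Icos was seen in 1 of 186, 7 of 264 and 17 of 350 cells (0.538%, 2.65% and 4.86%; at full depth 5.85%, 9.43% and 12.5%). None of 480, 443 and 370 B cells had a UMI, which allows shares of up to 0.625%, 0.677% and 0.811%. By CPM the order of the groups was vehicle, low dose, high dose. The CPM intervals of high dose and vehicle did not overlap, whereas those of the thinned shares did (0.0136 to 2.96% and 2.85 to 7.66%). Another draw, without the 36 barcodes, gave 0 of 174 vehicle (0 to 2.1%) and 15 of 341 high dose cells (2.48 to 7.15%). Whether these intervals overlapped thus depended on the draw and the cells kept. At 500 UMIs per cell the shares of all members were 1.60%, 0.377% and 1.99%, which is another order.

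Sh2d1a, the adaptor SAP that T cells need to help B cells, stood at 49.8, 78.5 and 109.7 CPM, a log2 ratio of 1.14 (0.71 to 1.59) at the high dose and 0.66 (0.17 to 1.15) at the low dose, and of 0.88 and 0.46 without the 36 barcodes, the second no longer past 1.5-fold. Izumo1r, the folate receptor 4 of follicular helper and other CD4 T cells, stood at 63.4, 63.1 and 115 CPM, a log2 ratio of 0.86 (0.47 to 1.26) at the high dose and 0.74 without those barcodes. The list held 9 genes, and the median log2 ratio of the 4 was 1.00, where 3.77% of all genes were higher. Icos passed the UMI minimum through the high dose and so had to differ. Without dividing cells 3 genes had enough UMIs and 2 were higher, where 1.89% of all genes were. Tox was the fourth, at -0.02. Cxcr5, the receptor that places these cells in B cell follicles, had only 0, 3 and 15 UMIs, and Pdcd1, which encodes PD-1, 4, 8 and 17. The rule leaves out barcodes with Ctla4, and the part of this in these low counts was not tested. Il2rb, a chain of the receptors for interleukins 2 and 15, stood at 24.5, 25.7 and 53.4 CPM, a log2 ratio of 1.13 (0.51 to 1.79) that was 0.87 without the 36 barcodes.

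Other helper programs were scarcely detected in these cells, which hold no Ctla4 by the rule. Of 10 T helper 1 genes 2 had enough UMIs: Il18r1, a receptor chain for interleukin 18, stood at 29.0, 49.9 and 51.0 CPM, log2 ratios of 0.82 at the high and 0.78 at the low dose that were 0.54 and 0.52, both no longer past 1.5-fold, without the 36 barcodes and 0.65 (0.06 to 1.28) and 0.51 without dividing cells too, and Stat4 moved by 0.28 on the log2 scale at the high dose. Tbx21, the T helper 1 master regulator, had 1, 6 and 17 UMIs, and Ifng, which encodes interferon gamma, 2, 1 and 9. Of 6 T helper 2 genes only Gata3 had enough UMIs (0.07), and none of 6 T helper 17 genes had.

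The activation and memory list pointed in different directions with and without the 36 barcodes. Of 14 genes 13 had enough UMIs in all members, and 2 were at least 1.5-fold higher and 5 lower at either dose, with a median of -0.19 at the high and -0.40 at the low dose (3.77% and 3.91% of all genes were higher and lower at the high dose, 2.51% and 4.41% at the low dose). Without those barcodes 11 had enough, 6 were higher and 1 lower at the high dose, with a median of 0.60, where 4.06% of all genes were higher and 1.29% lower, and 2 were higher and 1 lower at the low dose, with a median of 0.01. With the dividing cells left out too, 1 of 10 was higher and 1 lower at the high dose, with a median of 0.12, where 1.89% of all genes were higher and 1.2% lower. S100a6, a calcium-binding protein, turned direction, from 671, 1252 and 362 CPM (a log2 ratio of -0.89 at the high dose) to 177, 226 and 283 CPM (0.68; 0.42 to 0.94). Of its high dose UMIs 42.4% lay in the dividing cells, and with them left out too it was 0.06 (-0.22 to 0.35), no longer past 1.5-fold. Ccr2, a chemokine receptor of monocytes and memory T cells, went from -1.08 to 0.71 (-0.08 to 1.58). Lgals1, the secreted lectin galectin-1 (chromosome 15, 78926725 to 78930465), stood at 268, 244 and 583 CPM, a log2 ratio of 1.12 (0.94 to 1.31), and without those barcodes at 203, 236 and 571 CPM. Itgb1, an integrin chain of memory cells, stood at 77.0, 120.4 and 148 CPM, a log2 ratio of 0.94 (0.59 to 1.30). The dividing cells held 34.5% of its high dose UMIs, and without them and the 36 barcodes it was 0.41 (0.01 to 0.82), no longer past 1.5-fold. Crip1, a small zinc-binding protein of memory T cells, was lower, at 623, 427 and 271 CPM in all members and at 416, 401 and 255 CPM without those barcodes. The leading barcode held 29.5% of its vehicle UMIs in all members and 25.7% without those barcodes, and the part of such single barcodes was not tested.

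Most Lgals1 transcripts of the high dose group lay in the dividing cells, but unevenly. Single deep barcodes held 196, 209 and 245 UMIs, and the other dividing cells outside the 36 barcodes 0 to 44. The 12 dividing cells held 75.2% of its high dose UMIs outside the 36 barcodes, and without both sets of cells the log2 ratio was -0.33 (-0.61 to -0.05). In the vehicle group 1 barcode held 34.4% of the Lgals1 UMIs outside the 36 barcodes. Its part in the sign of that ratio was not tested. At full depth Lgals1 was seen in 32.4%, 30.9% and 32.4% of the cells in the vehicle, low and high dose groups, and thinned to 1000 UMIs in 5.91%, 12.1% and 13.7%, against 5.00%, 4.06% and 5.14% of B cells. At 500 UMIs the shares were 6.38%, 5.28% and 6.53%. The same cells held 74.0% of the high dose UMIs of Hmgb2, 49.5% of Icos, 26.2% of Sh2d1a, 9.69% of Izumo1r and 5.63% of Itga4. Without them Icos kept a log2 ratio of 0.95 (0.07 to 1.91), Sh2d1a of 0.62 (0.17 to 1.09) and Izumo1r of 0.78 (0.36 to 1.21). Itga4, the alpha 4 chain of homing integrins, had stood at 148, 133 and 220.3 CPM and had a log2 ratio of 0.71 (0.42 to 1.00) without them. Over all genes, leaving out the dividing cells too gave 60 of 3173 genes higher (1.89%) and 38 lower (1.2%) at the high dose, and 57 higher (1.8%) and 76 lower (2.4%) at the low dose. Of the 138 genes higher at the high dose before, 49 remained.

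Genes of the T cell receptor and of the naive state differed little. Of 17 receptor signaling genes all had enough UMIs, and 1 was at least 1.5-fold higher at the high dose in all members (Thy1, a surface glycoprotein of T cells, at 210.2, 262 and 341 CPM, a log2 ratio of 0.70, where 3.77% of all genes were higher). Their median was 0.24, and 16 of the 17 ratios were above 0. Without the 36 barcodes none was past 1.5-fold, 12 were above 0 and the median was 0.09. Cd5, a brake on receptor signaling, stood at 145, 156 and 213 CPM, a log2 ratio of 0.56 that was 0.33 without those barcodes. Of 14 naive and quiescence genes 13 had enough UMIs, with a median of 0.03, and 1 was past 1.5-fold. It was Dapl1, at 183, 174 and 283 CPM, a log2 ratio of 0.63 (0.39 to 0.86) that was 0.33 without the 36 barcodes. Lef1 stood at 562, 578 and 544 CPM, Ccr7 at 231, 276 and 234, and Klf2, a transcription factor of quiescence, at 792, 816 and 824 CPM. Il7r stood at 986 CPM in vehicle and 957 in high dose cells, and at 776 CPM in low dose cells, a log2 ratio of -0.35 (-0.47 to -0.22). Without the 36 barcodes Lef1 stood at 679.9, 616 and 570.0 CPM, a high dose log2 ratio of -0.25 (-0.40 to -0.11). Il7r then stood at 1165, 834 and 1002 CPM, at -0.22 (-0.33 to -0.11) for the high and -0.48 (-0.61 to -0.36) for the low dose. Without dividing cells too the high dose ratios of Lef1 and Il7r were -0.13 (-0.27 to 0.02) and -0.06 (-0.17 to 0.05).

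**Figure D4:**
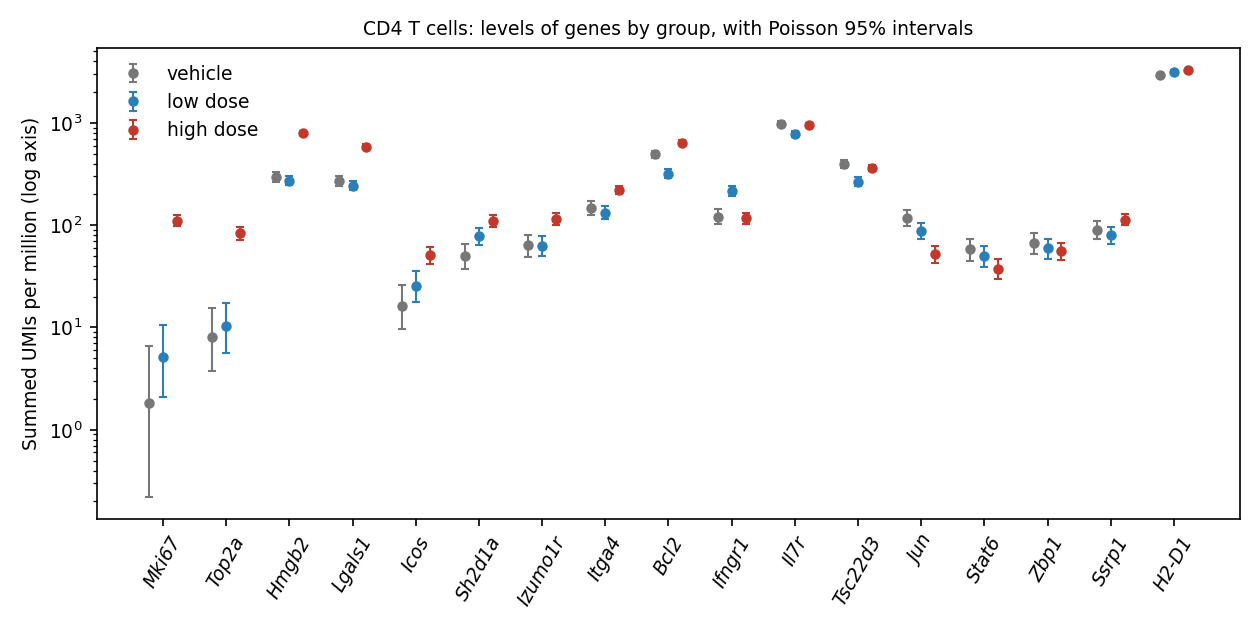
Levels of the genes named along the axis, in UMIs per 1000000 (log axis), in all 805 CD4 T cells by group, as points with 95% Poisson intervals. The high dose stands above both other groups for the genes from Mki67 to Itga4 and below the vehicle for Jun and Stat6, the low dose stands apart for Bcl2, Ifngr1, Il7r and Tsc22d3, and Zbp1 is level.

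Immediate early genes, which encode transcription factors induced soon after receptor signals, were in part lower at the high dose. Jun, a subunit of AP-1 (chromosome 4, 95049034 to 95052222), stood at 118 CPM (98.4 to 139.9) in vehicle, 88.1 in low dose and 52.0 (42.7 to 62.7) in high dose cells. The log2 ratio was -1.18 (-1.56 to -0.80), and -1.10 without the 36 barcodes. Fos, its partner, stood at 78.8, 36.7 and 22.9 CPM, but at 31.6, 20.5 and 19.6 CPM without them, where the interval reached 0 (-1.43 to 0.07). Junb moved by -0.50, by -0.21 without them, and by 0.07, the other way, with each cell thinned to 1000 UMIs. Jund moved by -0.33. Of 16 genes on the list 11 had enough UMIs, 2 were at least 1.5-fold lower and none higher, with a median of -0.33, where 3.91% of all genes were lower. Without the 36 barcodes 1 of 10 was lower, with a median of -0.21, where 1.29% of all genes were lower. Jun was least often seen at the high dose in B cells too: thinned to 1000 UMIs it was found in 13.5%, 14.0% and 6.22% of B cells of the vehicle, low and high dose groups and in 8.60%, 7.95% and 4.86% of CD4 T cells (median 3629 and 4890 UMIs in the vehicle group), and at full depth in 33.5%, 29.1% and 17.3% of CD4 T cells. Each thinned value is 1 random draw, and another draw, over the CD4 T cells without the 36 barcodes, gave 13.8%, 8.76% and 5.28% for Jun. Cd69, an early activation antigen that keeps T cells in tissue, stood at 141, 93.2 and 108 CPM, a log2 ratio of -0.60 (-0.95 to -0.25) at the low dose. With each cell thinned to 1000 UMIs it was -0.14, no longer past 1.5-fold, and Cd69 was seen in 8.60% of vehicle and 7.95% of low dose cells. The other draw gave 13.2% and 9.56%, and at full depth the shares were 42.0% and 28.3%.

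Transcripts of the pathways through which CBL0137 is known to act differed little between groups. FACT has the subunits Ssrp1 (90.6, 80.0 and 113 CPM) and Supt16 (90.6, 90.3 and 125 CPM), and the log2 ratios at the high dose were 0.32 (-0.02 to 0.68) and 0.46 (0.13 to 0.81). Without the dividing cells and the 36 barcodes they were -0.05 and 0.01, and with each cell of the whole set thinned to 1000 UMIs they were -0.27 and -0.18. Of 14 FACT and histone chaperone genes 9 had enough UMIs and none was past 1.5-fold at either dose. Zbp1, the sensor of left-handed nucleic acids that can start necroptosis, stood at 67.1 CPM (52.7 to 84.2), 59.5 and 55.8 (46.1 to 66.9), log2 ratios of -0.27 (-0.70 to 0.17) and -0.17 (-0.65 to 0.30) at the high and low dose. Under other scalings of the counts Zbp1 ranged from -0.31 to 0.09 at the high and from -0.18 to 0.49 at the low dose. Among its partners Ripk1 moved by 0.04 and Casp8 by -0.13 at the high dose. Ripk1 was not stable, at -0.76 with each cell thinned to 1000 UMIs. Ripk3 had 16, 20 and 35 UMIs and Mlkl, the executioner of necroptosis, 2, 0 and 1, too few to compare.

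Of 29 interferon-stimulated genes 20 had enough UMIs, 1 was at least 1.5-fold higher at the high dose and 1 lower (3.77% and 3.91% of all genes), with a median of -0.19. At the low dose 3 were lower and none higher (4.41% and 2.51% of all genes), with a median of -0.15. Without the 36 barcodes 2 of 18 were higher and none lower at the high dose (4.06% and 1.29% of all genes), with a median of -0.07. At the low dose 1 was lower in that set (2.41% of all genes), with a median of -0.17. Ifi27l2a was the higher one, at 409.6, 438 and 629 CPM, a log2 ratio of 0.62 (0.46 to 0.78). Isg15 was the lower one (-0.65), and it stood at -0.06 without those barcodes. Ly6e, a surface protein that interferon induces, stood at 130.5, 57.2 and 195 CPM, or 77.8, 55.9 and 149.8 CPM without them, and the dividing cells held 50.2% of its high dose UMIs. The 11 tested genes of MHC class I and antigen processing had a median of 0.15 and none past 1.5-fold. H2-D1 stood at 2907, 3163 and 3274 CPM.

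Stress and survival genes differed in part. Of 14 p53 targets 7 had enough UMIs and none passed 1.5-fold at the high dose (median 0.31). At the low dose 1 was higher, where 2.51% of all genes were. It was Trp53inp1, at 0.63 (0.08 to 1.19), which was 0.50 and no longer past 1.5-fold without the 36 barcodes. Bax, which promotes apoptosis, stood at 99.7, 103 and 127 CPM, and Mdm2, the ubiquitin ligase of p53, at 39.0, 38.9 and 35.8 CPM. Cdkn1a, the p53 target p21, had 22, 1 and 17 UMIs in all members and 1.13, 0 and 6.69 CPM without the 36 barcodes. Of 11 heat shock genes 9 had enough UMIs and 2 were at least 1.5-fold higher at the high dose, against 3.77% of all genes, and none of 9 was without dividing cells: Hsp90aa1 at 238 CPM in vehicle and 399 in high dose cells, with 42.1% of its high dose UMIs in the dividing cells and a log2 ratio that went from 0.74 to 0.05 without them and the 36 barcodes, and Hsph1 at 24.5, 51.4 and 47.7 CPM, with a log2 ratio that went from 0.96 to 0.50. Hsph1 was also higher at the low dose, by 1.07 (0.41 to 1.77). Socs1, an inhibitor of cytokine signaling, stood at 59.8, 88.8 and 90.6 CPM, log2 ratios of 0.60 (0.19 to 1.03) and 0.57 (0.13 to 1.03) at the high and low dose, and of 0.57 and 0.61 without the 36 barcodes. Stat6, which relays interleukin 4, stood at 58.0, 49.9 and 37.7 CPM, a log2 ratio of -0.62 (-1.12 to -0.12) at the high dose that was -0.28, no longer past 1.5-fold, with each cell thinned to 1000 UMIs.

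Some genes differed more from the vehicle at the low dose than at the high dose, a difference that was not tested. Ifngr1, the ligand-binding chain of the interferon gamma receptor (chromosome 10, 19591949 to 19610229), stood at 121 CPM (102 to 144) in vehicle, 217 in low dose and 117 (103 to 132) in high dose cells. The low dose differed from the vehicle by 0.83 on the log2 scale (0.53 to 1.14). Without the 36 barcodes it was 1.18 (0.81 to 1.56), at 91.3, 207 and 111 CPM. Thinned to 1000 UMIs it was seen in 11.3%, 17% and 9.71% of CD4 T cells (36.7%, 46.8% and 41.8% at full depth) and in 8.12%, 7.90% and 6.76% of B cells. Bcl2, which protects cells from apoptosis (chromosome 1, 106538178 to 106714274), was lowest at the low dose, at 491 CPM (451 to 534), 319 and 639 (606 to 675). Its log2 ratios were -0.62 (-0.81 to -0.44) at the low dose and 0.38 (0.24 to 0.53) at the high dose. Tsc22d3, the glucocorticoid-induced leucine zipper, stood at 397, 266 and 364 CPM, a log2 ratio of -0.58 (-0.78 to -0.37) at the low dose. Sgk1, another glucocorticoid target, moved the other way, at 81.6, 126 and 103 CPM, a log2 ratio of 0.62 at the low dose that was 0.50 and no longer past 1.5-fold without the 36 barcodes.

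Pptc7, a mitochondrial phosphatase, stood at 24.5, 53.6 and 39.6 CPM, a log2 ratio of 1.13 (0.48 to 1.82) at the low dose. Gimap5, a GTPase that lymphocytes need to survive, stood at 75.2, 119.6 and 98.7 CPM, a low dose ratio of 0.67 that was 0.55 and no longer past 1.5-fold without the 36 barcodes, and Cd28, the main costimulatory receptor, at 127, 178 and 168 CPM. These were low counts, and 2.51% of all genes were at least 1.5-fold higher at the low dose.

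**Figure D5:**
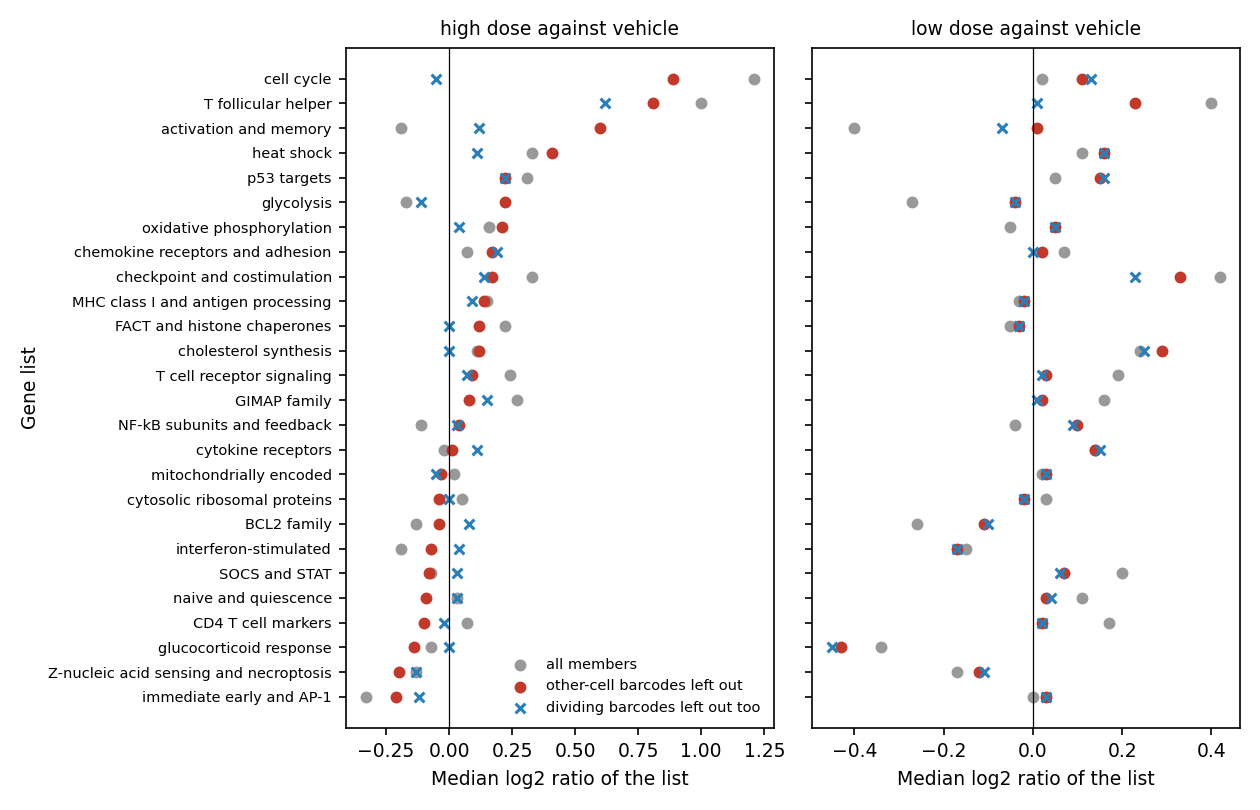
Median log2 ratio against the vehicle of each gene list with at least 3 measured genes, for all members (gray), without barcodes rich in other-cell transcripts (red) and without those and the dividing cells (blue crosses). At the high dose the cell cycle list stands at 1.21 (9 genes), 0.89 (8) and -0.05 (5), where the dividing cells were themselves chosen by division genes, and the follicular helper list at 1.00 (4 genes), 0.81 (4) and 0.62 (3, without Icos).

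Lists of basic cell functions differed little. Over all genes 3.77% were higher and 3.91% lower at the high dose, and 2.51% higher and 4.41% lower at the low dose. The 80 tested genes of cytosolic ribosomal proteins had medians of 0.05 at the high dose and 0.03 at the low dose, and none was past 1.5-fold. The 70 genes of oxidative phosphorylation had medians of 0.16 and -0.05, none past 1.5-fold, and the 13 mitochondrially encoded genes had medians of 0.02 at both doses, with 1 higher at the high dose. The 8 Gimap genes had medians of 0.27 and 0.16, with 1 higher at the low dose. The 9 glycolysis genes had a median of -0.17 at the high dose, none past 1.5-fold there and 1 lower at the low dose, and without the 36 barcodes 8 genes had a median of 0.22 at the high dose.

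The remaining lists had these medians at the high and the low dose, where 3.77% and 2.51% of all genes were higher and 3.91% and 4.41% lower. Without the 36 barcodes those shares were 4.06% and 2.23% higher and 1.29% and 2.41% lower. Of 6 glucocorticoid response genes (-0.07 and -0.34) none was past 1.5-fold at the high dose and 1 was higher and 1 lower at the low dose, and without the 36 barcodes 2 were lower there, with a median of -0.43. Of 6 BCL2 family genes (-0.13 and -0.26) 1 was lower at the high dose and 2 at the low dose, and without the 36 barcodes 0 and 1 of 5. Of 5 checkpoint and costimulation genes (0.33 and 0.42) 1 was higher at each dose, as was 1 of 4 without those barcodes. Of 14 cytokine receptors (-0.02 and 0.14) 2 were higher at each dose, and 1 at each without those barcodes. Of 8 SOCS and STAT genes (-0.07 and 0.20) 1 was higher and 1 lower at the high dose and none at the low dose, and without those barcodes 1 was lower at the high and 1 higher at the low dose. Of 11 chemokine receptors and adhesion genes (0.07 and 0.07) 1 was lower at each dose, and without those barcodes 1 of 10 was higher at the high dose and none lower. None of 3 cholesterol synthesis genes (0.11 and 0.24) and none of 6 NF-kB genes (-0.11 and -0.04) was past 1.5-fold.

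CD8 T cells of the same library (747 cells) were set beside the CD4 T cells, both without barcodes rich in other-cell transcripts. Barcodes with Ctla4 were left out of the CD4 T cells only, and the part of this in the differences was not tested. Jun had log2 ratios of -1.08 in CD8 and -1.10 in CD4 T cells at the high dose, a difference of -0.02 (-0.64 to 0.59; interval from the 4 counts on a log scale), and of -1.32 and -0.91 without dividing cells, a difference of 0.41 (-0.23 to 1.04). Bcl2 at the low dose was -0.62 in CD8 and -0.67 in CD4 T cells, a difference of -0.05 (-0.31 to 0.21) that was -0.01 (-0.27 to 0.25) without dividing cells. Dividing cells among CD8 T cells were 7 of 178 in the vehicle group (3.93%; 1.60 to 7.93), 0 of 255 at the low dose, which allows up to 1.18%, and 6 of 278 at the high dose (2.16%; 0.796 to 4.64). These intervals overlapped those of the CD4 T cells in every group, so the shares were not resolved between the classes. Among regulatory T cells, with all barcodes kept, 0 of 39 vehicle cells (which allows up to 7.69%), 6 of 64 (9.38%; 3.52 to 19.3) at the low dose and 6 of 67 (8.96%; 3.36 to 18.5) at the high dose were dividing. Mki67 stood at 47.3, 2.08 and 15.9 CPM in CD8 and at 1.13, 5.75 and 70.0 CPM in CD4 T cells. Lgals1 was lower at the high dose in CD8 T cells (371, 139 and 132 CPM), and the log2 ratios differed by 2.99 (2.66 to 3.31). With the dividing cells of both classes left out the difference was 0.27 (-0.16 to 0.70), at log2 ratios of -0.33 in CD4 and -0.60 in CD8 T cells. The part of single deep barcodes among the dividing cells was not tested. Ifngr1 at the low dose moved by 0.43 in CD8 T cells and by 0.75 (0.32 to 1.19) more in CD4 T cells, or 0.82 (0.38 to 1.26) more without dividing cells. Sh2d1a at the high dose moved by -0.16 in CD8 T cells, 1.04 (0.44 to 1.63) below the CD4 T cells, and 0.70 (0.06 to 1.33) below them without dividing cells. Icos did not separate the classes, with a difference of 0.53 (-0.99 to 2.05), or -1.13 (-3.06 to 0.81) without dividing cells.

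The same rule found 44 CD4 T cells in the library labelled spleen, 4 in the vehicle group, 8 at the low dose and 32 at the high dose, of 820, 1318 and 2345 barcodes. With 33373, 50313 and 268227 summed UMIs the genes could not be compared. By the same threshold 1 of 4, 1 of 8 and 7 of 32 were dividing, too few cells to compare the shares. Lgals1 had 6, 45 and 469 UMIs (179.8, 894 and 1749 CPM). Barcodes rich in other-cell transcripts, 1, 2 and 4 of these cells, were kept. Of the CD8 T cells there 8 of 33, 14 of 59 and 30 of 119 were dividing, with Lgals1 at 1672, 1663 and 1561 CPM.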

How the data were processed

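The authors deposited filtered droplet matrices of raw UMI counts per gene and hashtag, without normalization. The matrix header gives Cell Ranger 5.0.0, the submitters' processing notes Cell Ranger 6.0.0, Seurat and mm10. Members and gene lists were chosen with earlier results of these data known. UMIs were summed per group and scaled to 1000000 (CPM) with Python 3.11.15, numpy 2.4.6 and scipy 1.17.1. Shares have Clopper-Pearson, levels Poisson and ratios conditional binomial intervals at 95%. A count of 0 allows 3 counts. With 1 pooled sample per group no test was run, and a call was a 1.5-fold difference at 150 or more UMIs. The calculation of the ratio was tried on simulated data, which is not a test of any gene. Named genes were the 6 markers, the most abundant and up to 4 most different genes of each list, genes that define a list (Zbp1, Ripk1, Ripk3, Mlkl), and the 15 highest and 15 lowest ratios at the high dose and 8 and 8 at the low dose. The last step was repeated without other-cell barcodes, after the data were seen. Ccr7, Klf2, Cd44, Cd69, Cdkn1a, Mdm2, Ifng, Tbx21, Cxcr5 and Pdcd1 were chosen after their values were seen, as were the definitions of other-cell and dividing barcodes. HTODemux (Seurat 5.3.0, R 4.3.3) and Scrublet (scanpy 1.11.5) served as alternatives, and doublets stayed in the main result. Gene positions came from GENCODE mouse release 21, which held 32158 of 32285 identifiers. A few genes met by these rules are not reported here.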

Additional observations from a re-analysis of the deposited data

How the results depend on the processing

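No paired analysis was possible because each group was 1 pooled sample. The larger share of CD4 T cells at both doses kept its direction and stayed within its interval under every alternative run: HTODemux singlets, a hashtag of 20 UMIs and 5 times the next, at least 200 genes with under 10% mitochondrial UMIs, Scrublet doublets removed, cells over 5% neutrophil UMIs left out, 3 CD3 UMIs, and the other-cell barcodes left out (chosen after seeing the data). The vehicle share of dividing cells became 0 without those barcodes. The counts of genes past 1.5-fold were 143 and 148 (higher and lower, high dose) and 95 and 167 (low dose), and moved with the filters. With 2-fold they were 29, 68, 13 and 57. With 75 UMIs they were 407, 325, 294 and 375, with 300 UMIs 42, 68, 26 and 60, and with 1 UMI in each group 1576, 1757, 1453 and 1744. Thinning each cell to 1000 UMIs, which keeps 800000 of 4563355 UMIs, gave 576, 492, 578 and 518. Removal of Scrublet doublets gave 94 lower genes at the high dose. Leaving out the other-cell barcodes gave 44 lower genes at the high and 82 at the low dose, and leaving out the dividing cells too gave 60, 38, 57 and 76, and the cause was not tested.

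Directions turned for these named genes among others, and the cause was not tested beyond the cells left out. Under other scalings of the counts Crip1 turned to 0.45 and Lgals1 to 1.05 at the low dose. Zbp1 turned to 0.09 at the high and 0.49 at the low dose, and Cd69 to 0.25 at the high dose. Without other-cell and dividing barcodes the cell cycle median was -0.05 (over 5 of the 9 genes, with the cells left out chosen by such genes) and Lgals1 -0.33 at the high dose. For Lgals1, 1 vehicle barcode held 34.4% of the vehicle UMIs outside other-cell barcodes, and its part in the turn was not tested. In the same set Hbb-bs was 0.02 at the high and 0.64 at the low dose, where it was 0.63 with other-cell barcodes alone left out. Igkc at the high dose was -0.24 without other-cell barcodes, -0.22 without dividing cells too, -0.65 as a mean over cells and -0.67 thinned. Pclaf at the low dose was 0.15 without Scrublet doublets, 0.22 without neutrophil-rich cells, 1.35 and 1.36 without other-cell and then dividing barcodes, and 0.51 as a mean over cells. Thinned, Stmn1 was 1.82 and Hist1h1b -0.51 at the low dose. S100a6 without other-cell barcodes was 0.68 at the high dose, and without dividing cells too 0.06 at the high and -0.39 at the low dose, where it was -0.98 without neutrophil-rich cells. Ccr2 without other-cell barcodes was 0.71 at the high and 0.16 at the low dose, without dividing cells too 0.21 at the high dose, and thinned 1.09 and 0.30. Calls near 1.5-fold were lost under some settings: Bcl2 at the low dose (-0.62) was -0.55 without neutrophil-rich cells and -0.52 as a mean over cells, and Ifi27l2a at the high dose (0.62) was 0.47 without Scrublet doublets and 0.56 without other-cell and dividing barcodes. Lyz2 at the high dose was 2.16 and 2.33 without other-cell and then dividing barcodes. A high dose barcode of 26594 UMIs lay just under the cut for other-cell barcodes, at 0.9513%, and its part in these ratios was not tested. With 1 pool of 2 mice per group, differences between mice and between pools cannot be told apart from those between treatments.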
